A study of Danio rerio with 8 samples.

Results

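The teleost miR-462 and miR-731 cluster was followed through the small RNA libraries of zebrafish (Danio rerio) larvae. Its 2 members, dre-mir-462 (ENSDARG00000082377) and dre-mir-731 (ENSDARG00000080568), were taken by symbol from a table of 32520 genes, of which 434 are miRNA genes, and each symbol named 1 row. Both members passed the filter on low counts that left 651 genes, 271 of them miRNA genes. The pair was chosen by its levels in these same 8 libraries, which were known beforehand, so its levels and its S+ against S- differences are given as a description, with no test. The libraries were made from pools of 50 whole AB wild-type larvae at 7 dpf (days postfertilization). In the S- group, 4 pools came from crossings with control males left undisturbed, and in the S+ group, 4 pools came from crossings with males exposed to 21 days of chronic stress. The mothers were undisturbed control females in both groups, the larvae themselves were not stressed, and the progeny of a separate crossing made up each replicate. A pool of whole larvae gives no value for a single larva or tissue, and fewer cells of a type and less RNA per cell cannot be told apart.

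The miR-462 and miR-731 cluster belongs to the bony fishes, and its hairpins are regarded as the fish counterparts of mammalian miR-191 and miR-425, which lie within the DALRD3 gene in human. MiRNAs of a cluster can be cut from a shared primary transcript, after which each is processed, loaded and degraded on its own. In fish the cluster is known for induction by low oxygen, through the hypoxia-inducible factor Hif-1α in zebrafish, and by interferon and viral infection in other species such as rainbow trout and olive flounder. In the RefSeq annotation of assembly GRCz12tu, both hairpins are on chromosome 8 with no annotated gene between them. Their nearest annotated neighbours there are impdh2, an enzyme of guanine nucleotide synthesis, on the side of dre-mir-462, and dalrd3 on the side of dre-mir-731. These flanking mRNAs left almost no fragments in the libraries, with at most 2 counts of dalrd3 and 0 of impdh2 in any of them.

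Total counts ran from 3492945 to 4943297 per library, and miRNA genes held 96.2% to 97.9% of them. The label of whole larvae was compared with miRNAs of known tissues, and all 6 muscle genes (miR-1, miR-133 and miR-206), 13 neural genes (miR-124 and miR-9), 5 pancreas genes (miR-216, miR-217 and miR-375), 2 erythroid genes (miR-144 and miR-451) and the liver gene dre-mir-122 had counts. These lists hold symbols that start with dre-mir, so mir1-1, a further miR-1 gene, is outside the muscle list and its sum. The summed levels of S- and S+ libraries overlapped for each of these 5 lists. Among single genes of the lists, 2 neural genes (dre-mir-124-1 and dre-mir-124-2) had every S+ library lower, against 2.92% of all tested genes. Of the muscle genes, 2 (dre-mir-206-1 and dre-mir-133a-1) had every S+ library higher, against 4.76%. None of the 4 was called by limma. Dre-mir-133a-1 had few counts (mean 20.1), at 1.11 to 1.53 CPM in S- libraries. In the same lists, dre-mir-133b and dre-mir-133c had log2 fold changes of -0.30 and dre-mir-9-2 had 0.84, with overlapping groups. Dre-mir-9-2 had few counts (mean 12.9). On higher mean counts of 351, 121 and 168405, dre-mir-124-4, dre-mir-9-3 and dre-mir-9-7 had -0.97, -0.61 and -0.21, also with overlapping groups. These are examples, and not all genes of the lists are given.

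Both cluster genes were lower in S+ larvae, in each library of the group. In S- libraries 1 to 4, dre-mir-462 had 97.4, 94.9, 172.7 and 130.0 CPM, that is counts scaled to the library size after TMM normalization (CPM), on 356 to 679 counts. In S+ libraries 1 to 4 it had 84.7, 78.8, 50.4 and 71.3 CPM, on 245 to 343 counts. S- library 3 held the highest level and S+ library 3 the lowest, and no S+ library reached the lowest S- library. The S- mean was 123.7 ± 36.4 CPM (SD, n = 4), against 71.3 ± 14.97 CPM (SD, n = 4) for S+. The limma fit over all tested genes gave a log2 fold change of -0.79 (standard error 0.251), which is 1.72-fold lower in S+.

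Dre-mir-731, the less abundant partner, repeated this order of the groups. Its counts were 173, 226, 255 and 260 in S- libraries 1 to 4 and 157, 116, 159 and 103 in S+ libraries 1 to 4. The S- levels were thus 47.3, 49.97, 64.9 and 79.6 CPM, and the S+ levels 38.8, 27.9, 30.6 and 30.0 CPM. S+ libraries 2, 3 and 4 lay close together at the bottom, S+ library 1 stood nearest to the S- range, and the groups again did not overlap. The S- mean was 60.4 ± 14.9 CPM (SD, n = 4), against 31.8 ± 4.79 CPM (SD, n = 4) for S+. On the log2 scale limma put the difference at -0.89 (standard error 0.228), or 1.86-fold lower in S+. The gap between the S+ library with the most and the S- library with the least was narrow for either gene, at 84.7 against 94.9 CPM for dre-mir-462 and 38.8 against 47.3 CPM for dre-mir-731. Without the TMM factors the groups stayed apart, at 85.4 against 92.2 and at 39.1 against 44.8 CPM on library size alone.

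**Figure D1:**
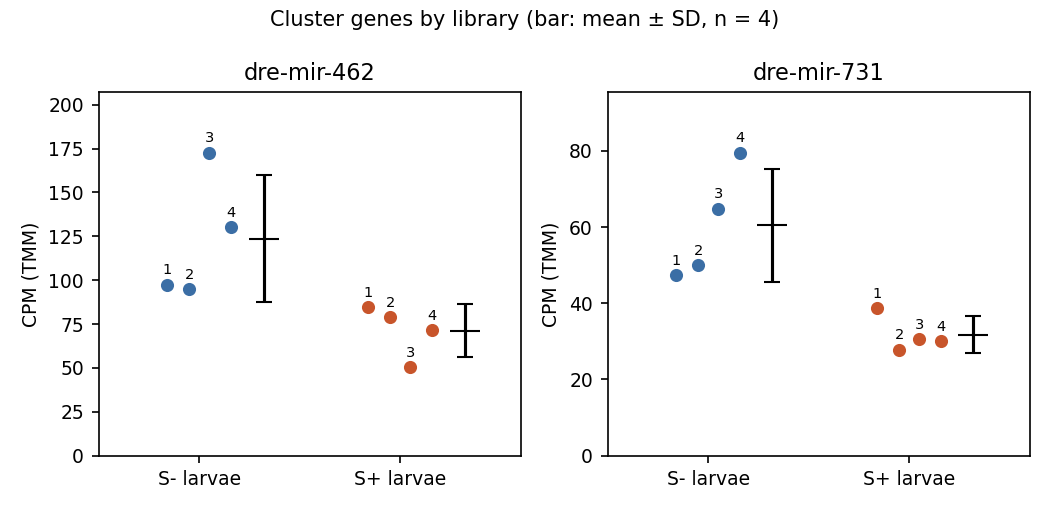
Levels of dre-mir-462 (left) and dre-mir-731 (right) in CPM, with 1 numbered point per library and bars for the mean ± SD of each group of 4. The S+ points end at 84.7 and 38.8 CPM, under the lowest S- points at 94.9 and 47.3 CPM.

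Across the table, 19 of 651 genes (2.92%) had every S+ library below every S- library, and 31 (4.76%) had every S+ library above. The median log2 fold change was -0.02 over all tested genes and -0.01 over the miRNA genes, so the centre of the table lay near 0. From the lowest log2 fold change upward, dre-mir-731 was number 9 and dre-mir-462 number 10 of 271 miRNA genes. Neither member was among the 2 genes (0.307%) called in the limma refit made here. Calling used the study's thresholds, a Benjamini-Hochberg adjusted p below 0.05 from limma and an absolute log2 fold change above 0.58. From its own fit, the paper reported only miR-29a as differentially expressed. With DESeq2 in place of limma both members were among 30 called genes (4.61%), and with limma on miRNA genes alone dre-mir-731 was among 7 of 271 (2.58%). The pair was chosen with its levels in these libraries known, so these calls are a description and no independent support.

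Within each library the partners kept a ratio that differed little between the groups. Dre-mir-462 had 1.63 to 2.83 counts for each count of dre-mir-731. Divided by the RefSeq hairpin lengths of 102 and 90 bases, its mean level was 1.87 times that of its partner. Whether counts scale with hairpin length was not tested. The gene rows join both arms of a hairpin, so the ratio is between genes and not between mature strands. The share of dre-mir-462 in the summed counts of the cluster was 67.3%, 65.5%, 72.7% and 62.0% in S- libraries 1 to 4, on 529 to 934 summed counts. In S+ libraries 1 to 4 it was 68.6%, 73.9%, 62.2% and 70.4%, on 348 to 500 summed counts. High and low shares occurred in either group, with S+ library 2 the highest and S- library 4 the lowest.

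**Figure D2:**
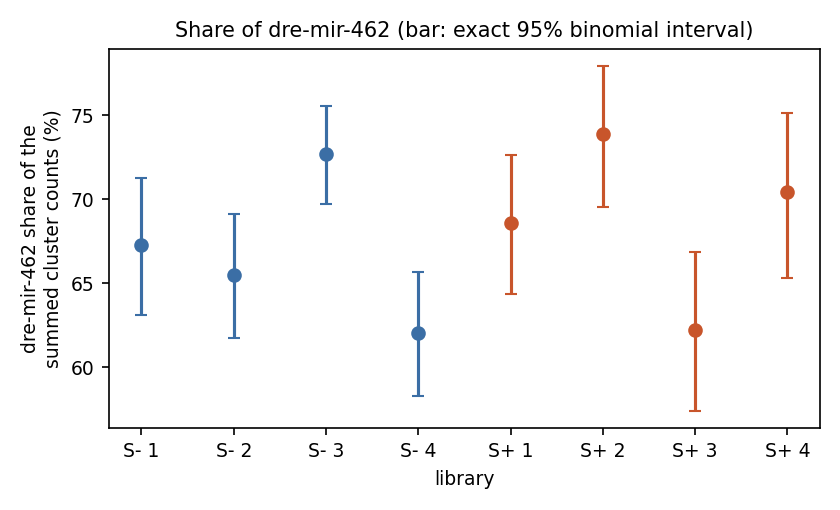
Share of dre-mir-462 in the summed counts of both cluster genes (%), by library, with exact 95% binomial intervals (Clopper-Pearson) that cover counting error only. The shares lie between 62.0% and 73.9%, and the S- and S+ libraries are interleaved.

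The log2 ratio of dre-mir-462 to dre-mir-731 averaged 1.02 ± 0.29 (SD, n = 4) over the S- libraries and 1.15 ± 0.33 (SD, n = 4) over the S+ libraries. The difference of 0.13 was smaller than the SD of either group. Over all 8 libraries the SD was 0.30, while counting alone would give 0.14 at these depths. The exact 95% interval of the share in S- library 3 (69.7% to 75.5%) lay wholly above that in S- library 4 (58.3% to 65.7%), these being 2 libraries picked as the ends of the S- range. The smaller counts of dre-mir-731 set most of the precision of the ratio, with an exact 95% Poisson interval from 84.1 to 124.9 around its 103 counts in S+ library 4.

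Followed over the 8 libraries, the partners varied together. The Pearson correlation of their log2 CPM was 0.85 and the Spearman correlation 0.86, as a description of points that share library, depth and group. Without S- library 3 and S+ library 3, the 2 farthest from the median of dre-mir-462, the Pearson correlation was 0.97 over 6 libraries. In these 2 the partners differed in their distance from the group mean, at 0.52 against 0.13 and -0.47 against -0.04 for dre-mir-731. Leaving them out thus removed disagreement, while the remaining libraries still differed by group. The group contrast of dre-mir-462 shrank, however. Its log2 fold change was -0.60 without S- library 3 alone and -0.62 without S+ library 3 alone, against -0.79 over all libraries. After the mean of each group was removed, the Pearson correlation over all 8 libraries was 0.58 and the Spearman correlation 0.50. The partners then deviated in the same direction in 6 of 8 libraries. In the other libraries, S+ 2 and S+ 4, dre-mir-462 was above its group mean by 0.17 and 0.03 on the log2 scale, while dre-mir-731 was at -0.18 and -0.07.

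**Figure D3:**
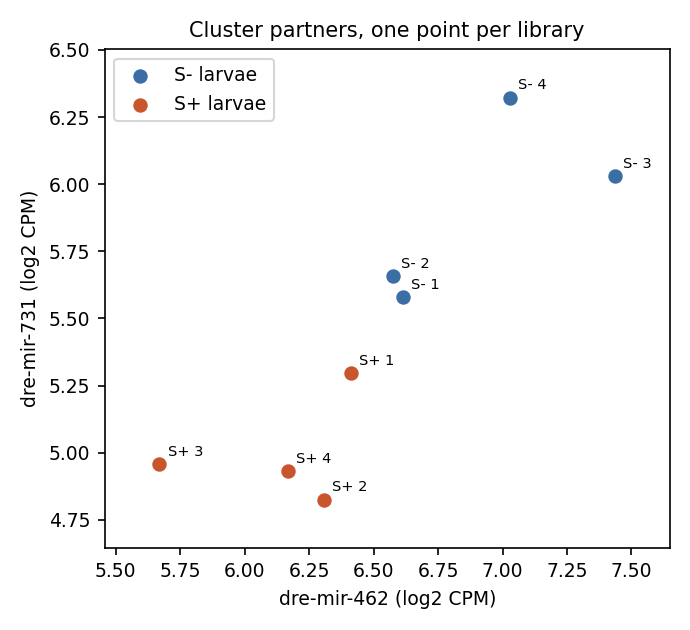
Log2 CPM of dre-mir-462 (x axis) against dre-mir-731 (y axis), with 1 point per library, coloured by group. The 4 S+ points lie to the lower left of the 4 S- points, and S+ library 3, at 5.67 and 4.96, is low for dre-mir-462 and near its group mean for dre-mir-731.

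Other neighbouring miRNA genes show how far such agreement was usual in these libraries. Of the tested miRNA genes, 231 of 271 were matched to the RefSeq table, and 73 pairs among 91 of them lie within 10000 bases of each other, taken without regard to strand, which the table does not give. Many of the genes have near-identical copies elsewhere, among which the authors' counting could divide reads, whereas the table names a single gene each for miR-462 and miR-731. The median Pearson correlation of the 73 pairs was 0.13, with a range from -0.87 to 0.95. The cluster was number 2 from the top, between dre-let-7f with dre-let-7a-1 (0.95) and dre-mir-16a with dre-mir-15c (0.82). With the group means removed it was number 15. The SD of its log2 ratio, 0.30, was below the median of 0.38 for the pairs.

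In 33 of the 73 pairs both genes had a log2 fold change of the same sign, and in 1 pair, the cluster itself, neither gene overlapped between the groups and both lay in the same direction. The smaller of its absolute log2 fold changes, 0.79, was the largest such value among the pairs, ahead of 0.42 for dre-mir-17a-1 with dre-mir-19a, whose changes were of opposite sign. These ranks include the contrast with which the cluster was chosen and are a description.

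**Figure D4:**
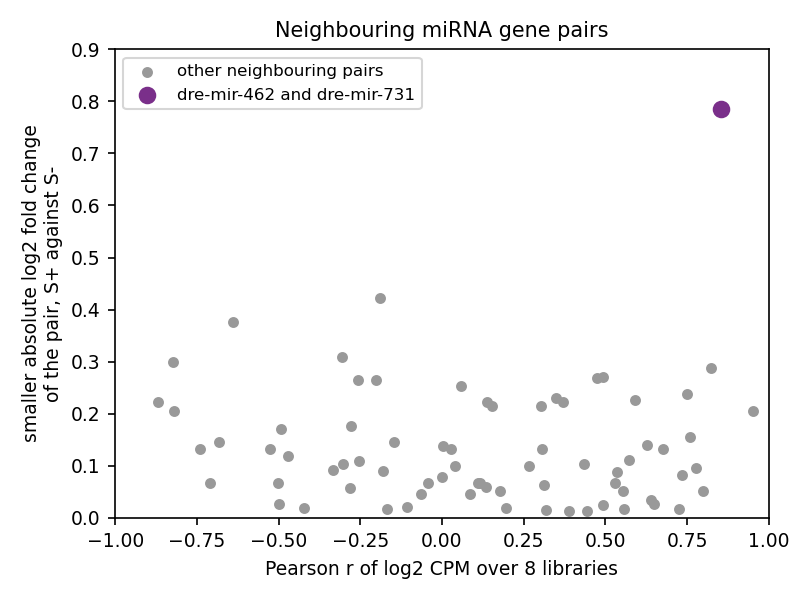
Each point is a pair of neighbouring miRNA genes, with the Pearson correlation of log2 CPM over 8 libraries on the x axis and the smaller absolute log2 fold change of the pair, S+ against S-, on the y axis. The cluster, at 0.85 and 0.79, stands apart at the upper right, and the other 72 pairs lie at or below 0.42 on the y axis.

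The miRNA genes with a pattern most like the cluster included some known from gut and liver and some known from muscle. Among 270 other miRNA genes, the highest Pearson correlations with dre-mir-462 over the 8 libraries were those of dre-mir-192 (0.86), an epithelial miRNA abundant in gut and liver, dre-mir-133b (0.85), a muscle miRNA, and dre-mir-731 (0.85). For dre-mir-731 they were those of dre-mir-194b (0.96), dre-mir-489 (0.93) and dre-mir-194a (0.89), where miR-194 is again a miRNA of gut and liver and miR-489 is known from muscle stem cells in mouse. Dre-mir-462 was number 4 for dre-mir-731, and number 14 once the group means were removed, when dre-mir-731 was number 17 for dre-mir-462. With the group means removed, the correlation with dre-mir-462 was 0.82 for dre-mir-192 and 0.72 for dre-mir-133b. That with dre-mir-731 was 0.82 for dre-mir-194b, 0.73 for dre-mir-489 and 0.40 for dre-mir-194a. Of these genes, dre-mir-192 and dre-mir-194a lie within 1000 bases of each other (Pearson correlation 0.59), so they need not vary independently.

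The levels of the gut and liver miRNAs were then read by group. Since dre-mir-192, dre-mir-194a and dre-mir-194b were picked for their likeness to the cluster over all libraries, their differences are not independent of that choice. This holds for the sign and for the p values. Dre-mir-194b had 199.4 to 237.8 CPM in S- and 149.7 to 166.2 CPM in S+ libraries, and dre-mir-194a 668.4 to 779.7 CPM in S- and 482.5 to 544.1 CPM in S+. Their log2 fold changes were -0.46 (standard error 0.128) and -0.44 (standard error 0.115). For both, every S+ library was lower, as in 2.92% of all tested genes. The limma adjusted p values were 0.166 and 0.164, so neither was called. Over the 15 alternatives the lowest adjusted p was that of DESeq2, 0.00641 for either, and the log2 fold changes stayed short of 0.58 in size. Dre-mir-192 had 9425 to 11617 CPM in S- and 6718 to 9999 CPM in S+, which overlap, and its log2 difference was -0.23 (limma adjusted p = 0.545), or -0.11 without S+ library 3 and -0.31 without S+ library 1. Dre-mir-122, the liver miRNA, had 1564 to 2110 CPM in S- and 1797 to 1958 CPM in S+ libraries, a log2 difference of 0.10 (limma adjusted p = 0.743) that ran from 0.03 without S- library 4 to 0.18 without S- library 3 when single libraries were left out. It was the only one of these genes not picked by likeness. The likest genes known from muscle were picked in the same way. Dre-mir-489 had 285.0 to 395.3 CPM in S- and 244.5 to 253.5 CPM in S+, so every S+ library was lower. Its log2 fold change was -0.41, with adjusted p values of 0.207 by limma and 0.0471 by DESeq2, and neither called it. Dre-mir-133b had -0.30 (limma adjusted p = 0.426), with overlapping groups. The part of gut, liver and muscle content in the levels of the cluster was not tested.

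Since the cluster is known to answer to low oxygen and to interferon, the other miRNAs with such links were read beside it. Of 9 listed genes 8 were in the table and tested, 4 had positive and 4 negative log2 fold changes, and 0 were called by limma, against 2 of 651 in the table (0.307%), with a median log2 fold change of 0.09 against -0.01 over the miRNA genes. By the unadjusted limma p, 2 of the 8 were below 0.05, against 81 of 651 (12.4%) in the table. By DESeq2 and by limma on miRNA genes alone, 1 of the 8, dre-mir-155, was called, against 4.61% and 2.58% of the genes tested in these fits.

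Dre-mir-210, the best known target of hypoxia-inducible factors among vertebrate miRNAs, had higher values in S+. It had 1007, 928, 1235 and 1217 CPM in S- libraries 1 to 4 and 1422, 2103, 1552 and 1327 CPM in S+ libraries 1 to 4. Every S+ library lay above every S- library, as in 31 of 651 tested genes (4.76%). The log2 fold change of 0.54 (standard error 0.171) had a limma adjusted p of 0.201, and one between 0.0639 and 0.430 over the 15 alternatives.

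Dre-mir-155, a miRNA of activated immune cells, was a gene of few counts with the same order of the groups. It had 12.3, 12.4, 19.6 and 14.99 CPM in S- libraries 1 to 4, on 45 to 77 counts. In S+ libraries 1 to 4 it had 21.5, 27.1, 30.0 and 36.1 CPM, on 87 to 156 counts. Every S+ library thus lay above every S- library, as in 4.76% of all tested genes. The fitted log2 fold change was 0.95 (standard error 0.254), at a limma adjusted p of 0.166. It was called in 2 of 15 alternatives, DESeq2 and miRNA genes only, and its adjusted p ran from 0.0185 to 0.463. For both miRNAs the value stayed positive under each of the 15 alternatives, while that of the cluster stayed negative. With groups that did not overlap, leaving a library out could hardly change either sign. Of the 8 tested genes of the list, 4 had negative log2 fold changes. The part of low oxygen and interferon in the levels of the cluster was not tested.

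The remaining immune miRNAs overlapped between the groups. Dre-mir-142a and dre-mir-142b, markers of blood cells, had log2 fold changes of -0.93 and -0.29 (limma adjusted p = 0.426 and 0.743), and without S+ library 3 these were -0.44 and 0.02. Without S+ library 1 that of dre-mir-142a was -1.36. Dre-mir-146a and dre-mir-146b, which restrain inflammatory signalling, had -0.29 and -0.02, the latter positive in 4 of the 15 alternatives. For dre-mir-146a it was -0.07 without S+ library 3 and -0.54 without S- library 3. Dre-mir-21-1 and dre-mir-21-2, whose near-identical copies could share reads, had 0.21 and 0.20.

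**Figure D5:**
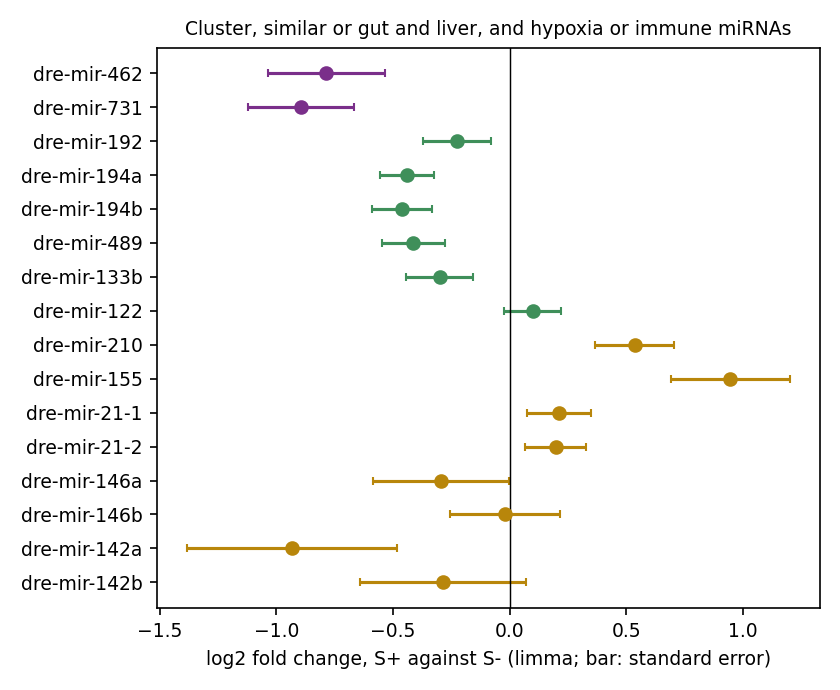
Log2 fold change of S+ against S- from limma, with its standard error, for the cluster (purple), the miRNAs with a like pattern or of gut and liver (green) and the miRNAs linked to hypoxia or immunity (ochre). The cluster lies at -0.79 and -0.89, dre-mir-194a and dre-mir-194b at -0.44 and -0.46, and dre-mir-210 and dre-mir-155 at 0.54 and 0.95, and with limma over all genes none of the 16 genes was called.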

How the data were processed

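The authors trimmed reads with Trim Galore 0.6.6, mapped them to GRCz11 with STAR 2.7.8a and quantified Ensembl release 104 genes with RSEM 1.3.0. They deposited the estimated counts of RSEM as whole numbers, so rounding changed 0 values. No deduplication is described, and intervals cover counting error only. The methods name a stranded mRNA kit and also small RNA reads. Groups came from the sample labels. Limma 3.58.1 with voom in R 4.3.3 compared S+ with S-, with TMM factors and filterByExpr (minimum count 10) from edgeR 4.0.16 and adjustment over all 651 genes. Log2 CPM used a prior count of 2. The fit was tested on simulated counts. The likest genes were the 3 miRNA genes with the highest Pearson correlation to each member. Alternatives comprised DESeq2 1.42.0, the quasi-likelihood test of edgeR, other factors, no filter, miRNA genes only, the replicate block and each library left out. The members, lists and tests were chosen with earlier results of these data known. RefSeq GRCz12tu gave names, hairpin lengths and neighbours only, since the files use another build.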

Additional observations from a re-analysis of the deposited data

How the results depend on the processing

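The log2 fold change stayed negative under all 15 alternatives for both members. Since the groups did not overlap, leaving a library out could hardly change this sign. Over the 7 alternatives with all libraries the log2 fold change ran from -0.85 to -0.75 for dre-mir-462 and from -0.96 to -0.87 for dre-mir-731. With each library left out it ran from -0.92 to -0.60 and from -1.001 to -0.766. All of these values moved by less than the SD between replicates. Leaving out a single library shifts a group mean by less than the SD of that group, whatever the values. With libraries left out this comparison could therefore hardly fail, and it is no measure of stability there. The difference in the log2 ratio of the partners ran from 0.01 to 0.27 over 11 alternatives. Its moves stayed within the SD between replicates, which again could hardly fail with libraries left out. The cluster stayed near the top of the neighbouring pairs (number 2 within 1000 and within 50000 bases, tied at 1.5 by Spearman correlation). These ranks include the contrast with which the cluster was chosen, so they are no measure of stability. With the group means removed it was number 15 of 73. The count of called genes, 2 of 651 by limma, was 30 with DESeq2 and 1 with library size only. It was 0 with DESeq2 size factors (79 genes at an unadjusted p below 0.05). It was 79 with no filter, 7 of 271 with miRNA genes only, and 0 to 3 with each library left out. With no filter every gene with a count was tested, many more than 651, and 1325 had an unadjusted limma p below 0.05. The fits with a library left out tested other numbers of genes as well. The counts of called genes in these fits are therefore not on the same scale as 2 of 651. The count was 0 without S- library 1 or 2 or S+ library 1 or 2, with 71 to 78 genes at an unadjusted limma p below 0.05. With the replicate block it was 9, neither member among them, and the members had log2 fold changes of -0.80 and -0.91. The ratio difference was 0.13 with the block too, which was fixed in advance, since each number has 1 library of each group. In the labels, same-numbered libraries share only a number. Their deviations correlated at 0.156, -0.159, 0.248 and 0.029, on average 0.069 against -0.022 for the other pairs across the groups. Of 8 libraries, 3 correlated best with their own number. These values cannot tell whether same-numbered libraries share a batch. The causes of these changes were not tested. Depth limits the precision of dre-mir-731, with 103 to 260 counts per library, and of dre-mir-155, with 45 to 156.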

Other observations

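Messenger RNAs linked to the known inducers of the cluster were almost without fragments in these small RNA libraries. Of 12 hypoxia mRNAs, all in the table, none passed the filter, 2 (hif1aa and ca9) had 0 counts in all libraries, and the highest count was 11, for ldha. Of 15 symbols in the interferon list 13 were in the table, and the missing ddx58 and rigi are names of the same gene. None of the 13 passed the filter, and 9 had 0 counts in all libraries, among them irf7, isg15, rsad2, mxa and mxb. The highest count was 8, for stat2. So few counts did not allow these mRNAs to be tested.

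The mRNAs with the highest single counts of each list are given by library, chosen after their values had been seen. Such a choice favours mRNAs that are high in 1 group. Summed over the libraries of a group, hif1ab had 12 counts in S- and 15 in S+, and pfkfb4b 12 and 14. The sums were 10 and 13 for vhl, 5 and 5 for pfkfb3, and 4 and 2 for igfbp1a. In the interferon list, stat1a had 2 and 1, stat1b 1 and 0, and ifih1 0 and 1. Ldha, the lactate dehydrogenase of glycolysis, had 2, 1, 2 and 1 counts in S- libraries 1 to 4 and 7, 10, 11 and 5 counts in S+ libraries 1 to 4. Stat2, a signal transducer of the interferon response, had 0, 2, 0 and 0 counts in S- libraries 1 to 4 and 6, 0, 8 and 4 counts in S+ libraries 1 to 4. Neither passed the filter on low counts, and how often genes below the filter were so ordered was not counted.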
